A study of Mus musculus with 4 samples.

Results

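The major histocompatibility complex (MHC) class II genes and the invariant chain gene were examined in haematopoietic stem cells (HSC) with and without the Rb family. The members are 7 genes, H2-Aa, H2-Ab1, H2-Eb1, H2-DMa, H2-DMb1, Cd74 and Ciita, taken by name from knowledge of the pathway. They were chosen with earlier results of these data known, so the counts below describe the list and do not test it. A gene was measured through array probe sets whose platform annotation lists exactly 1 gene symbol. By this rule 6 of the 7 members had a value, through 14 probe sets, among 18193 genes measured in all. H2-DMb1 had none, since its 2 probe sets also list the neighbouring H2-DMb2, and these were not used.

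The data are 4 mouse Affymetrix arrays of HSC sorted as KLS CD48- CD150+ cells, with 2 Rb family deficient and 2 wild type pools of 3 mice each. The deficient pools carry the genotype label Rb -/- p130 -/- p107-/- and the pools called wild type Rb +/+ p130 +/+ p107-/-. Every pool thus lacks p107 by label, and the groups differ in Rb and p130. The labels state tamoxifen injection of adult mice and sorting 2 weeks after recombination; the Cre driver, strain and age are not stated in the sources used. Whether the pools of a group share mice is not stated either, so the p-values measure the spread between these pools only. Values are log2 expression per probe set, and a difference is always deficient minus wild type. Array medians ran from 5.94 to 6.02. By limma 0 of 18193 genes, or 0%, passed an adjusted p of 0.05 in either direction, while the unadjusted p was under 0.05 for 399 higher (2.19%) and 735 lower genes (4.04%). Within the HSC markers, Slamf1 (CD150) ran from 8.81 to 9.90 and the receptor gene Kit from 9.94 to 11.09 over the pools, and Cd48, which the gate excludes, from 5.84 to 7.09.

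Class II molecules carry peptides from endocytosed protein to the cell surface, where CD4+ T cells read them. An alpha chain pairs with a beta chain in the endoplasmic reticulum together with the invariant chain, CD74, which fills the groove and steers the complex to endosomes. There proteases trim CD74 to a short peptide, and the DM molecule exchanges that peptide for antigen. Transcription depends on CIITA, a coactivator with no DNA binding of its own that sits on the factors RFX, CREB and NF-Y bound to a shared promoter module, the X and Y boxes. B cells, dendritic cells and macrophages carry class II constitutively or after interferon gamma.

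Promoters are shown because class II genes are controlled through that shared module. RefSeq promoters (GRCm38.p6, 250 bases before to 50 after each annotated start) were matched for 4 of the 7 members: H2-Aa, H2-Eb1, H2-DMb1 and H2-DMa. The Y box core was searched as GATTGG on both strands and stood in 16.1% of all 32851 promoters. The X box core AGNNAC, with N any base, followed by GATTGG after 10 to 40 bases stood in 1.98%. Of the 4 members with a promoter 2 held this pair, H2-Eb1 and H2-DMb1. Among other genes of the class II pathway H2-Eb2, H2-Oa, H2-Ob and Marchf1 held it. A second form, GNAACT followed by GATTGG at the same spacing, was chosen after the sequences were seen. It overlaps the first and stood in 0.469% of all promoters. H2-Aa held only this second form, and H2-DMa held neither. The X2 core TGNNTCA alone stood in 42.5%. The 140 bases before the annotated start are printed 5' to 3' on the strand of the gene for the members that hold the second form, and for the class II beta gene H2-Eb2, with the GNAACT and GATTGG matches in capitals.
H2-Aa: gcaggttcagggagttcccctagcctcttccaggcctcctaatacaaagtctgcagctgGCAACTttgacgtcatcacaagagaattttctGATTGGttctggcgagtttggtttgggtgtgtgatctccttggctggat
H2-Eb1: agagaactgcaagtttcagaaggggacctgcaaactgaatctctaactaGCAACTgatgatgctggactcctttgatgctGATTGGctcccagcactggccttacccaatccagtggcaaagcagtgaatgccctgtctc
H2-DMb1: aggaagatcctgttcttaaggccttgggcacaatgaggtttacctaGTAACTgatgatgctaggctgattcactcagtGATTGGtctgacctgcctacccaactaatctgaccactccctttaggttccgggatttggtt
H2-Eb2: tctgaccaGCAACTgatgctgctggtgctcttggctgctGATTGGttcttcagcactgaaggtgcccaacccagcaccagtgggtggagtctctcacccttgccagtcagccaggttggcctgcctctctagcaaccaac
These windows lie at chr17:34287824-34287963 (minus strand) for H2-Aa, chr17:34305727-34305866 (plus) for H2-Eb1, chr17:34153051-34153190 (plus) for H2-DMb1 and chr17:34325535-34325674 (plus) for H2-Eb2. The matches stand 26 bases apart in H2-Aa and H2-DMb1 and 25 bases apart in H2-Eb1 and H2-Eb2. A match of letters is a description and shows no binding.

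**Figure D1:**
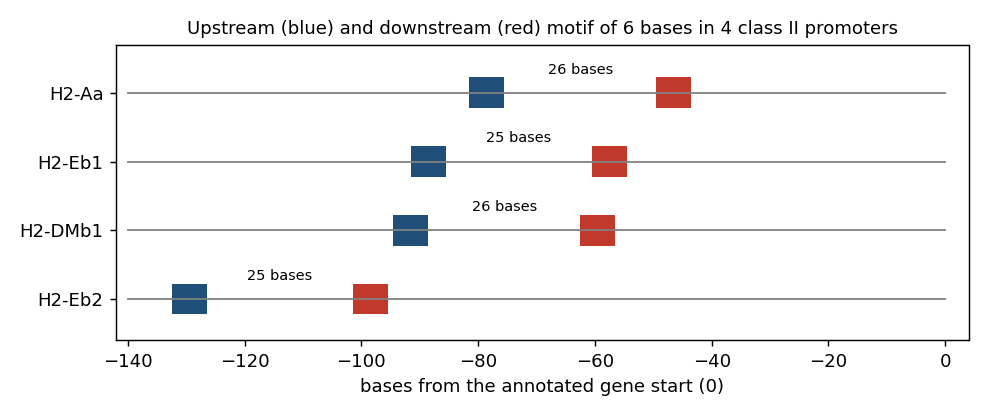
Positions of the GNAACT match (blue) and the GATTGG match (red) in the 140 bases before the annotated start of H2-Aa, H2-Eb1, H2-DMb1 and H2-Eb2, with the number of bases between them; the x axis is the distance in bases from the start. The spacing is 25 or 26 bases in the 4 promoters, and the pair lies farthest from the start in H2-Eb2.

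The classical class II chains and the invariant chain stood lower in the deficient pools on average, and the gap was smaller without wild type pool 1. H2-Aa, H2-Ab1, H2-Eb1 and Cd74 differed by -0.81 to -1.25 on the log2 scale, from 1.75-fold to 2.38-fold lower, while H2-DMa differed by -0.16 and Ciita by 0.17. None of these differences passed the adjusted threshold. Of the 6 members 5 lay below 0, against 50.8% of all genes, and 3 were at least 2-fold lower, against 0.275%. The deficient pools lay below both wild type pools for 3 of the 6, against 18.5%, and 0 lay above both, against 17.0%. Groups without overlap in either direction made up 35.5% of all genes. Of the 6, 0 were at least 2-fold higher, against 0.528%, and 1 had an unadjusted p under 0.05, against 6.23% in either direction. The median over the 6 was -0.92, beside -0.00376 over all genes, and it was -0.27 without wild type pool 1.

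H2-Aa encodes the alpha chain of the I-A molecule. Deficient pools 1 and 2 read 10.51 and 10.16 on the log2 scale, and wild type pools 1 and 2 read 11.88 and 10.84. Both deficient pools lay below both wild type pools, with wild type pool 1 standing 1.03 above wild type pool 2. The group means were 10.34 (SD 0.25, n = 2) and 11.36 (SD 0.73, n = 2), a log2 difference of -1.02 (SE 0.36, 95% interval -1.94 to -0.10) or 2.03-fold lower (limma adjusted p = 0.782). H2-Aa ranked at 810 of 18193 genes by p and was the member with an unadjusted p under 0.05 (0.0351). The difference was -0.51 without wild type pool 1 and -1.54 without wild type pool 2.

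The other 3 H2-Aa probe sets gave differences of the same sign, -1.11 (SE 0.35), -1.03 (SE 0.51) and -1.38 (SE 0.66). All 4 were highest in wild type pool 1. The dimmest ran from 5.09 to 7.87 over the pools, and there deficient pool 1 (6.06) lay just above wild type pool 2 (6.03). Each of the 4 has an _x_at or _s_at name, which marks probes that can hybridise to related transcripts.

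H2-Ab1 encodes the I-A beta chain, the partner of H2-Aa. On the log2 scale deficient pools 1 and 2 read 8.81 and 8.89, against 10.30 and 9.02 for wild type pools 1 and 2. The deficient pools nearly coincided and lay just under wild type pool 2, whereas wild type pool 1 stood apart. The gap between the wild type pools was 1.28, more than that between the groups (-0.81, SE 0.42, 95% interval -1.87 to 0.25, limma adjusted p = 0.813). Without wild type pool 1 the difference was -0.17, and without wild type pool 2 it was -1.45. The other H2-Ab1 probe sets differed by -1.54 (SE 0.72) and -0.92 (SE 0.50), with the same order of wild type pool 1 above pool 2 above both deficient pools. The brightest H2-Ab1 probe set has an _s_at name and the last of these an _x_at name, with the same limit as for H2-Aa.

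H2-Eb1 encodes the beta chain of the I-E molecule. It read 9.17 and 7.65 (log2) in deficient pools 1 and 2, against 10.40 and 8.93 in wild type pools 1 and 2. The groups overlapped, since deficient pool 1 lay above wild type pool 2. The pools of a group differed by 1.52 in the deficient and 1.47 in the wild type arm, and the group difference of -1.25 (SE 0.66, 95% interval -2.93 to 0.43, limma adjusted p = 0.818) was smaller than either. Leaving out deficient pool 1 gave -2.01 and deficient pool 2 -0.49; leaving out wild type pool 1 gave -0.52 and wild type pool 2 -1.99. H2-Eb1 was measured by a single probe set, whose name marks it as specific to its gene.

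Cd74, the invariant chain that chaperones class II through the secretory pathway, read 7.64 and 7.38 (log2) in deficient pools 1 and 2, against 9.26 and 7.89 in wild type pools 1 and 2. Both deficient pools lay below both wild type pools, by 0.25 from deficient pool 1 to wild type pool 2. The group means were 7.51 (SD 0.18, n = 2) and 8.57 (SD 0.97, n = 2), a log2 difference of -1.06 (SE 0.45, 95% interval -2.20 to 0.08) or 2.09-fold lower (limma adjusted p = 0.799). The difference was -0.38 without wild type pool 1 and -1.75 without wild type pool 2. In Cd74, H2-Aa and H2-Ab1 wild type pool 1 minus pool 2 was thus 1.37, 1.03 and 1.28, and deficient pool 1 minus pool 2 was 0.25, 0.35 and -0.08.

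**Figure D2:**
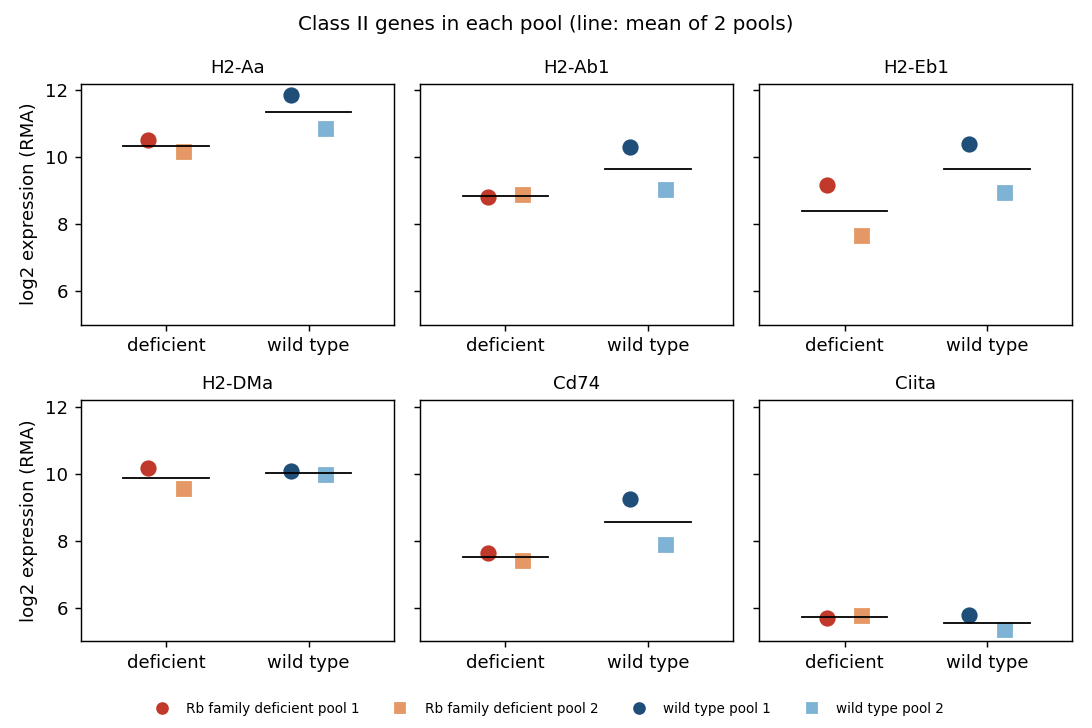
Log2 expression of the 6 measured members in each pool, 1 panel per gene with a common y axis; circles are pool 1 and squares pool 2 of each group, and the line is the mean of 2 pools. Wild type pool 1 is the highest pool for H2-Aa, H2-Ab1, H2-Eb1 and Cd74, and Ciita lies between 5.32 and 5.78 in all pools; heights are not comparable between genes.

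H2-DMa encodes the alpha chain of the DM molecule, which loads peptide but presents none. Log2 readings of 10.19 and 9.56 in deficient pools 1 and 2 compare with 10.10 and 9.96 in wild type pools 1 and 2. Deficient pool 1 was the highest of the 4 and deficient pool 2 the lowest, so the wild type values lay inside the deficient range. The difference was -0.16 (SE 0.24, 95% interval -0.77 to 0.45, limma adjusted p = 0.934), and leaving out a pool gave -0.47 (deficient pool 1), 0.16 (deficient pool 2) or -0.09 (wild type pool 1). The dimmer second probe set ran from 7.03 to 7.99 in the same order of the deficient pools and differed by 0.00347 (SE 0.37).

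Ciita, the coactivator that switches class II genes on, read 5.68 and 5.76 (log2) in deficient pools 1 and 2, and 5.78 and 5.32 in wild type pools 1 and 2. These values lie just below the array medians, and both deficient pools stood between the wild type pools. The difference was 0.17 (SE 0.20, 95% interval -0.34 to 0.67, limma adjusted p = 0.910), -0.06 without wild type pool 2 and 0.40 without wild type pool 1. The dimmer probe sets differed by -0.11 (SE 0.18) and -0.13 (SE 0.17), and with the mean of the 3 Ciita differed by -0.03.

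Across the members the highest array was wild type pool 1 for 5 of 6 genes, against 26.0% of all genes; H2-DMa was the exception. For all 7 probe sets of H2-Aa and H2-Ab1, and for H2-Eb1 and Cd74, that pool stood highest. In a profile made by centring each member on its own mean and averaging the 6, deficient pools 1 and 2 stood at -0.13 and -0.56 and wild type pools 1 and 2 at 0.82 and -0.13. Wild type pool 2 and deficient pool 1 thus had the same mean level of the members to 2 decimals, with wild type pool 1 above and deficient pool 2 below them.

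**Figure D3:**
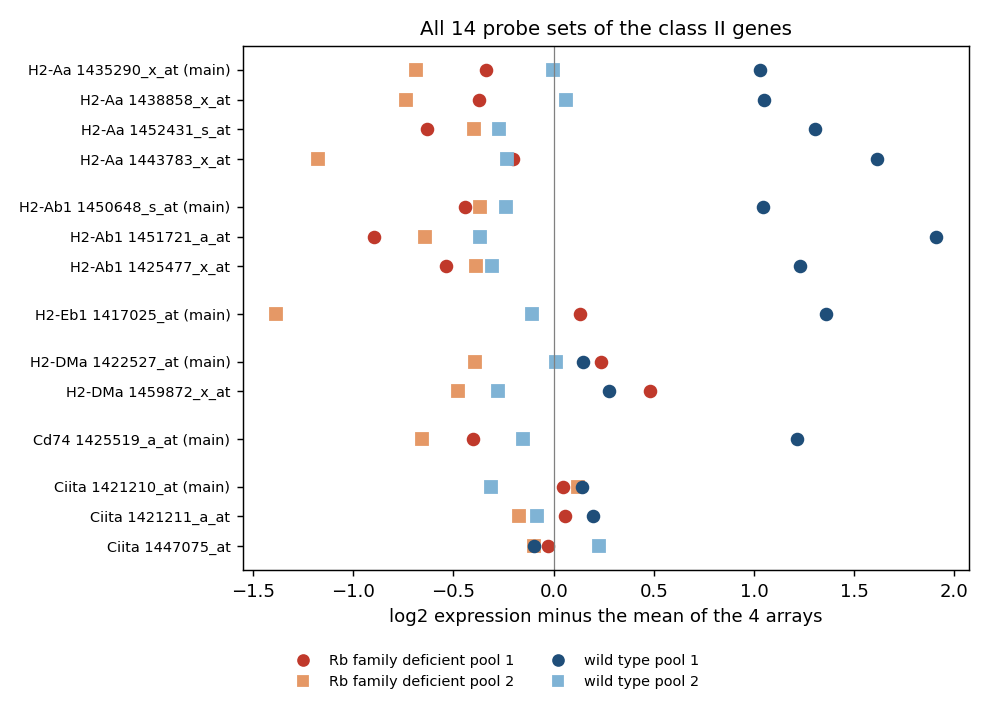
Log2 expression minus the mean of the 4 arrays for the 14 probe sets of the members, grouped by gene with the brightest probe set first (main); colours and shapes are the 4 pools. Wild type pool 1 lies to the right for every probe set of H2-Aa, H2-Ab1, H2-Eb1 and Cd74, while for H2-DMa deficient pool 1 does.

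The 6 genes outside the list whose centred values lay nearest to that profile, by Euclidean distance over the 4 arrays, were Lmo7, Znfx1, Tlr4, Gbp2b, Kdm1b and Zmat1, at distances from 0.09 to 0.19 log2 units. With 4 arrays such a likeness is a description only. Tlr4, the endotoxin receptor, read 7.10 and 6.81 in deficient pools 1 and 2, against 8.005 and 7.21 in wild type pools 1 and 2. Gbp2b, an interferon-inducible guanylate binding protein, read 8.86 and 8.65 against 9.97 and 9.02. Differences of the 6 ran from -0.74 to -0.59 (limma adjusted p 0.802 to 0.825), and each was highest in wild type pool 1. Both traits follow from choosing genes by likeness to that profile.

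Other genes of class II loading and turnover had a median near 0. Of 15 listed and measured, 7 lay above 0 and 8 below, with a median of -0.00894 (-0.09 without wild type pool 1), and the unadjusted p was under 0.05 for 2, both lower in the deficient pools (4.04% of all genes). H2-Oa and H2-Ob encode the DO molecule, which restrains DM, and were named beyond the rule as class II chains, as were H2-Eb2 and H2-DMb2. H2-Oa read 8.34 and 8.81 in deficient and 8.43 and 8.61 in wild type pools, differing by 0.05 (SE 0.21), and H2-Ob differed by 0.04 (SE 0.33). H2-Eb2, whose promoter holds the pair, read 6.11 and 5.47 against 5.74 and 6.02, differing by -0.08 (SE 0.26), and H2-DMb2 by -0.13 (SE 0.17). The groups overlapped for all 4, and each changed sign in at least 1 alternative.

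Marchf8, a ubiquitin ligase that takes class II and CD86 off the cell surface, read 7.71 and 7.92 in deficient and 8.91 and 8.48 in wild type pools (log2 difference -0.88, SE 0.20, limma adjusted p = 0.761). The costimulatory ligand gene Cd86 read 6.73 and 6.82 against 7.19 and 7.19 (log2 difference -0.42, SE 0.14, limma adjusted p = 0.770). Cd86 had nearly equal wild type pools, and its difference was -0.41 without wild type pool 1. Ifi30, the lysosomal thiol reductase that unfolds antigen, stood the other way at 9.61 and 9.19 against 8.51 and 9.10 (0.59, SE 0.26, limma adjusted p = 0.802), or 0.30 without wild type pool 1 and 0.38 without deficient pool 1.

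Factors that bind the X and Y boxes, their coactivators and Prdm1, which is neither, had a median of 0.08 over 11 genes. That median was the value of Prdm1 itself, 0.08 (SE 0.22). The median turned to -0.16 with deficient pool 1 left out and to -0.13 with wild type pool 2 left out. An unadjusted p under 0.05 was seen for 1 gene, which was lower in the deficient pools, against 4.04% of all genes. That gene was Rfx5, a DNA-binding subunit of RFX at the X box, which read 10.45 and 10.61 in deficient and 11.28 and 11.07 in wild type pools. The difference was -0.64 (SE 0.16, 95% interval -1.05 to -0.23, limma adjusted p = 0.761) and -0.54 without wild type pool 1. The other RFX subunit genes were measured and had no unadjusted p under 0.05. The NF-Y subunit genes differed in sign, with Nfyb at 0.33 (SE 0.14) and Nfya at -0.42 (SE 0.20), and Nfya turned to 0.38 with gene-specific probe sets preferred and was -0.22 without wild type pool 1.

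Genes of interferon gamma signalling towards Ciita had a median of -0.02 over 11 measured of 12 listed, or -0.19 leaving out wild type pool 1 and 0.13 leaving out deficient pool 2. An unadjusted p under 0.05 was seen for 2, both lower in the deficient pools, against 4.04% of all genes. Nlrc5, a relative of CIITA that activates class I genes, read 9.19 and 9.15 in deficient and 10.11 and 9.56 in wild type pools (log2 difference -0.67, SE 0.22, limma adjusted p = 0.761). Irf1, a factor induced by interferon gamma, read 10.03 and 10.18 against 11.04 and 10.44 (log2 difference -0.64, SE 0.24, limma adjusted p = 0.785). Both were highest in wild type pool 1, without which they differed by -0.39 and -0.34. Jak1 differed by -0.34 (SE 0.15).

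Class I presentation genes, the sister pathway for cytosolic peptides, lay below 0 in 15 of 15 measured, with a median of -0.28, or -0.08 without wild type pool 1. Groups did not overlap, deficient lower, for 7 of the 15, against 18.5% of all genes, and 1 had an unadjusted p under 0.05, being lower, against 4.04%. Wild type pool 1 was the highest array for 12 of the 15, against 26.0%. The gene with the lowest p was Pdia3, a disulfide isomerase of the class I loading complex, with 8.38 and 8.34 against 9.55 and 8.76 (-0.79, SE 0.28, limma adjusted p = 0.782; -0.39 without wild type pool 1). The proteasome activator gene Psme1 differed by -0.35 (SE 0.15) and the class I heavy chain gene H2-K1 by -0.49 (SE 0.23), or -0.25 without wild type pool 1 and -0.32 without deficient pool 1. Tapbp (tapasin) and the light chain gene B2m, named after their values were seen, differed by -0.78 (SE 0.37) and -0.33 (SE 0.16), or -0.22 and -0.19 without wild type pool 1. Class I heavy chain genes are close paralogs whose probes can cross-hybridise.

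**Figure D4:**
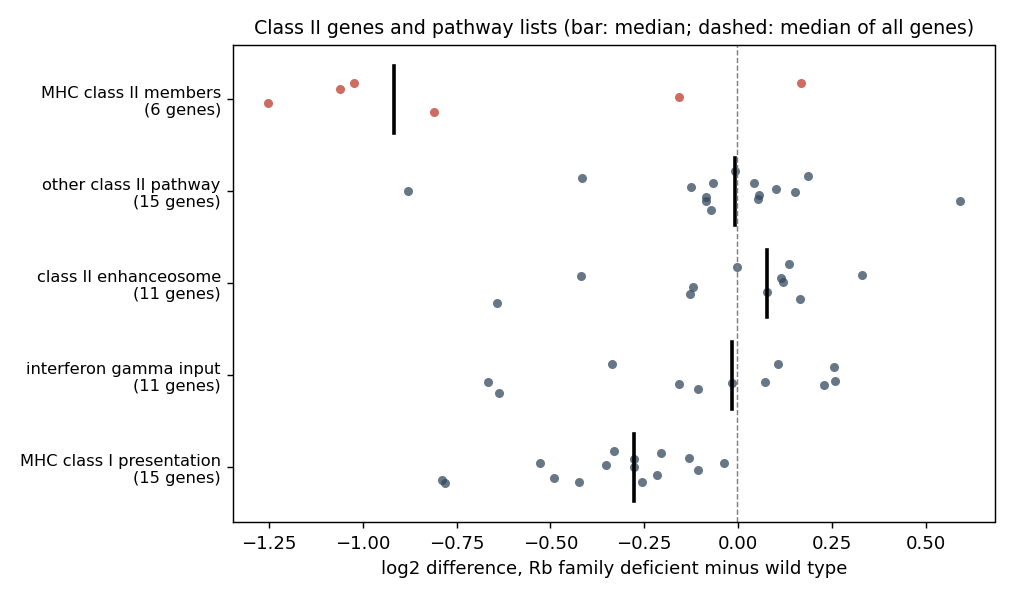
Log2 differences, deficient minus wild type, of each measured gene in the class II list and 4 pathway lists; points are genes, black bars list medians, and the dashed line is the median of all genes. The class II median is -0.92, the class I median -0.28, and the 3 other lists have medians between -0.02 and 0.08.

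Markers of the cells that carry most class II lay mostly above 0. Most of these markers were dim, below the median level of all genes. The exceptions were 2 B cell, 3 dendritic cell and 2 macrophage markers. In bulk samples, fewer cells of a type and less RNA per cell cannot be told apart. Of all 18193 genes 8944 lay above 0. B cell markers lay above 0 in 8 of 11 (median 0.10), dendritic cell markers in 10 of 11 (0.19) and macrophage markers in 8 of 12 (0.05). Leaving out wild type pool 1 turned these medians to -0.01, 0.13 and -0.16, and the B cell median was -0.02 without deficient pool 1. Wild type pool 1 had the most class II signal. It was the highest array for 0 genes of these 3 lists, against 26.0% of all genes. Whether such cells contribute to the class II values was not tested. Summed as linear values, the B cell list stood at 5417 and 5365 for deficient pools 1 and 2 against 3107 and 4129 for wild type pools 1 and 2, the dendritic cell list at 3456 and 3275 against 2785 and 3063, and the macrophage list at 676 and 785 against 601 and 800. The sums rest on their brightest probe sets: Ighm held 82% to 88.9% of the B cell sum and Tcf4 50.1% to 56.4% of the dendritic cell sum. Without these genes the B cell list summed to 725 and 597 against 560 and 666, and the dendritic cell list to 1507 and 1565 against 1389 and 1388. The brightest gene left in the dendritic cell list was Flt3, at 9.49 and 9.84 (log2) against 9.54 and 9.42. Flt3 also stands in the list of multipotent and lymphoid progenitors. The summed members themselves stood at 3898 and 2794 against 8128 and 4117. H2-Aa held 37.5% to 46.2% of that sum. Without H2-Aa the members summed to 2438 and 1648 against 4369 and 2279, with deficient pool 1 above wild type pool 2.

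The B cell marker with the lowest p was Ighm, the immunoglobulin mu heavy chain, at 0.67 (SE 0.19, limma adjusted p = 0.761). It was read by an _s_at probe set and differed by 0.13 with gene-specific probe sets preferred and by 0.41 with all its probe sets averaged. The factor Ebf1 followed at 0.62 (SE 0.32), or 0.23 without deficient pool 1 and 1.02 without deficient pool 2. Cd79a, a signalling chain of the B cell receptor, read 6.14 and 6.18 in deficient and 5.99 and 6.30 in wild type pools, with the sign of the difference turning under quantile normalization, and Pax5, the B cell identity factor, differed by 0.26 (SE 0.19). Clec10a, a lectin of dendritic cells and macrophages, read 6.31 and 6.12 against 5.52 and 5.15 (0.88, SE 0.19, limma adjusted p = 0.761), and Tcf4 differed by 0.25 (SE 0.17). Itgax (CD11c) read 5.85 and 5.93 against 5.82 and 5.52, Zbtb46, a factor of classical dendritic cells, differed by 0.17 (SE 0.20) and Flt3 by 0.19 (SE 0.18). Among macrophage markers Cd163 differed by -0.59 (SE 0.32), or -0.13 without wild type pool 2 and -1.04 without wild type pool 1. Fcgr1 differed by 0.19 (SE 0.16), C1qa by 0.16 (SE 0.16), Csf1r by 0.00573 (SE 0.21) and Adgre1 by 0.000764 (SE 0.21), the last 2 turning below 0 with array median centring.

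Other lists also had their lowest or highest sum in wild type pool 1. Mature neutrophil markers had a median of 1.05 over 12 genes, or 0.40 without wild type pool 1, and summed to 68294 and 43336 for deficient pools 1 and 2 against 20538 and 43484 for wild type pools 1 and 2, with Stfa2l1 at 3.08 (SE 0.32) and Il1r2 at 1.38 (SE 0.17). Erythroid markers had a median of 0.14 over 6 genes, or -0.50 without wild type pool 1, and summed to 3802 and 1458 against 694 and 4677, with Hba-a1 at 0.23 (SE 0.18) and Klf1 at 0.59 (SE 0.81). HSC markers had a median of -0.22 over 12 genes, which was not smaller without wild type pool 1 (-0.28). They summed to 12091 and 14872 against 19490 and 16899, with Procr at -0.85 (SE 0.17) and Mecom at -0.69 (SE 0.16). Of the 12, 5 lay above 0, among them Ctnnal1, named after its value was seen, at 0.75 (SE 0.24), or -0.0118 with gene-specific probe sets preferred. With all probe sets of a gene averaged the HSC median was 0.0034 and Mecom differed by -0.32. Wild type pool 1 thus held the lowest neutrophil and erythroid sums and the highest HSC and class II sums. The part of these marker differences in the class II values was not tested.

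Megakaryocyte markers had a median of -0.02 over 7 genes, of which 4 lay below 0. Gp1bb differed by 1.17 (SE 0.19) and Itga2b by 0.54 (SE 0.37), the latter by 0.0021 with deficient pool 2 left out and 1.09 with deficient pool 1 left out. Markers of T and NK cells had a median of 0.04 over 9 (-0.02 without wild type pool 1), with Lat at -0.28 (SE 0.18) and Cd3g at 0.17 (SE 0.16). Those of multipotent and lymphoid progenitors had a median of -0.00259 over 7 (0.48 without wild type pool 2), with Cd34 at -0.76 (SE 0.24) and Notch1 at -0.33 (SE 0.19). By limma 0 genes of any of these lists passed the adjusted threshold.

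**Figure D5:**
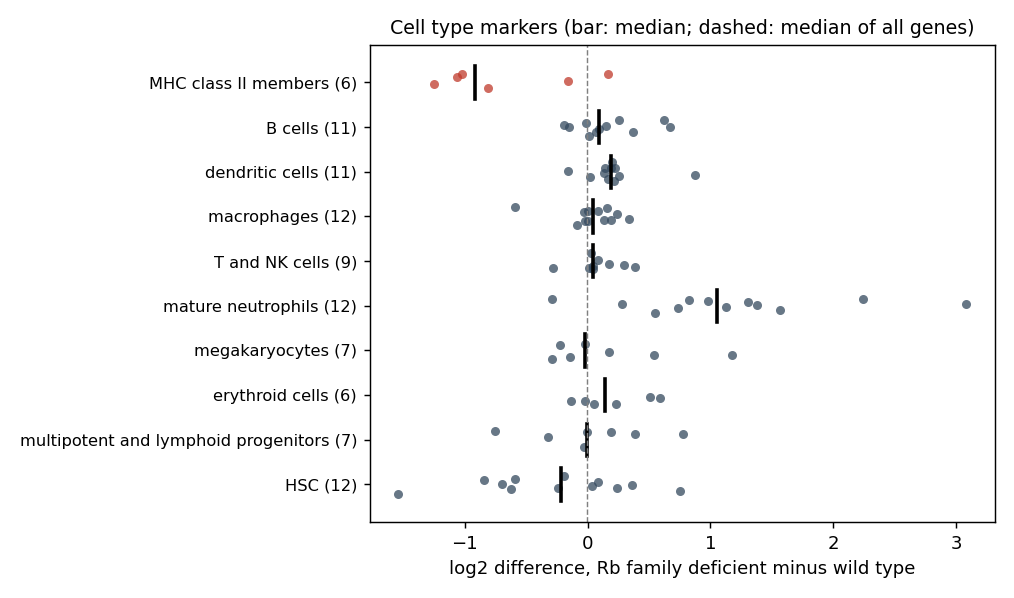
Log2 differences, deficient minus wild type, of the class II members and of the measured markers of 9 cell types, with the number of genes in brackets; points are genes, black bars list medians, and the dashed line is the median of all genes. The medians of the B cell, dendritic cell and macrophage lists are 0.10, 0.19 and 0.05, and the class II median is -0.92. Most markers of these 3 cell types are dim.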

How the data were processed

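Per the labels, total RNA was hybridised as biotinylated cRNA. The authors deposited log2 values, a single value for each probe set on each array; the submitters' processing notes name RMA, which corrects background, equalises the arrays' distributions and summarises probes, and limma, without versions. That the scale is log2 was inferred from the range of the values. After RMA a shift in total RNA per cell cannot be seen. Detection calls were not used, so nothing is called above or below background, and the number of arrays limits the precision.

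The table held 45101 probe sets; the platform annotation of 2016 gave 1 gene symbol for 34945 of them, several for 932 and none for 9160, and 64 were controls. Symbols were updated by Entrez ID with RefSeq genes of GRCm38.p6 (34741 matched). Where a gene had several probe sets, the brightest by its mean of 4 arrays was kept. Groups came from the sample titles. The test was limma 3.58.1 (lmFit, eBayes, no block) under R 4.3.3, adjusted by Benjamini-Hochberg over 18193 genes; SE denotes limma's moderated standard error. Second probe sets were tested in a fit of the probe sets with 1 symbol. The script was tested on simulated data. Lists are described by counts and medians, with no set test; the 4 pathway lists and 9 cell type lists are named in the text. Members and lists were chosen with earlier results of these data known. Named genes are the members, the 3 genes with the lowest p in each pathway list, the 2 in each cell type list, defining markers of B cells, dendritic cells and macrophages, and the 6 nearest patterns, passing over symbols of predicted genes, clones and expressed sequences. Alternatives were array median centring, quantile normalization, other probe set choices, a filter on dim genes, eBayes with trend, a replicate block and leaving out each pool.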

Additional observations from a re-analysis of the deposited data

How the results depend on the processing

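H2-Aa, H2-Ab1, H2-Eb1 and Cd74 kept a difference below 0 under all 12 alternatives. The blocks, the eBayes settings and the filter leave a gene's difference unchanged in this design, so these could not turn a sign. H2-Eb1 and Cd74 have no further probe set for the probe set choices to change. Where the groups did not overlap, as for H2-Aa, H2-Ab1 and Cd74, leaving out 1 pool could not turn it either. With all 4 arrays kept, 0 members and 0 genes passed limma's adjusted threshold under any alternative. Leaving out 1 pool moved the members' median between -1.496 (without wild type pool 2) and -0.27 (without wild type pool 1), the number of members with an unadjusted p under 0.05 between 0 and 4, and the number of all such genes between 244 and 689 higher and between 317 and 1082 lower. With genes at or above the median level only, 2 members, 176 genes higher and 408 lower had such a p, and this filter removed Ciita as too dim. With trend and robust in eBayes 2 members had such a p.

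With the pool number as a replicate block 3 members (H2-Aa, H2-Eb1 and Cd74) and 457 lower genes had an unadjusted p under 0.05. The differences between pool 1 and pool 2 correlated between the groups at -0.19 over genes, so no shift shared by equal pool numbers was seen over genes. Each group gives a single such difference, so this value cannot decide whether the pool numbers pair the pools. A crossed replicate block, added after seeing the data, gave 1151 lower genes, 1 member and 0 adjusted calls. The block changed no adjusted call.

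Of 60 genes named, with Prdm1 and Marchf1 not counted, 12 changed sign without 1 pool and 8 under another alternative. The causes were not tested. Averaging all probe sets of each gene turned Ciita to -0.0251, Zbtb46 to -0.10 and H2-DMb2 to 0.0361. With specific probe sets first Nfya turned to 0.38, Ctnnal1 to -0.0118, Csf1r to -0.0739 and H2-DMb2 to 0.00558. Quantile normalization turned Cd79a to -0.0371 and Adgre1 to -0.0625, and array median centring Adgre1 to -0.00714 and Csf1r to -0.00217. With 1 pool left out H2-DMa ran from -0.47 to 0.16, Ciita from -0.0597 to 0.40, H2-Oa from -0.18 to 0.29, H2-Ob from -0.44 to 0.53, H2-DMb2 from -0.28 to 0.0313, H2-Eb2 from -0.40 to 0.23, Cd79a from -0.14 to 0.17, Adgre1 from -0.26 to 0.26, Csf1r from -0.20 to 0.21, Slamf1 from -0.28 to 0.76, Cd48 from -0.66 to 0.59 and Klf1 from -0.64 to 1.82.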
